A study of Mus musculus with 11 samples.

Results

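Genes whose mouse symbol is Zfp followed by a number code for zinc finger proteins, most of them DNA-binding factors built from repeated C2H2 fingers. Numbered Zfp genes were taken from the tables of ileal and colonic intestinal epithelial cells (IECs), where the entry for a gene was split at commas into its symbols. The tables named 264 numbered Zfp genes for the ileum and 286 for the colon, and 247 of them were kept as members because they reached a log2 FPKM of at least -1 in WT or Vil-Ogt KO in both tables. FPKM is the number of fragments per kilobase of transcript, scaled to the mapped fragments of the library. The same minimum was met by 12022 named genes with a value above 0 in all 4 columns, and these serve as the background. Members were therefore chosen by their measured level, 17 genes present in both tables stayed under the minimum, and 22 genes were listed for the colon only.

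A C2H2 finger is a short loop held around a zinc ion by a pair of cysteines and a pair of histidines, and a row of such fingers reads a stretch of DNA base by base. Many of these proteins also carry a KRAB box at the amino end, which recruits Trim28 (KAP1) and through it the H3K9 methyltransferase Setdb1 and HP1 proteins, so that bound sites are silenced. Genes of this kind multiplied by tandem duplication, stand in clusters on a few chromosomes, and are known above all for silencing retrotransposons and imprinted loci in embryonic cells. Other members have no such role: Zfp36, for example, is tristetraprolin, a CCCH-type protein that binds AU-rich elements of messenger RNAs and promotes their decay.

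All animals were 10-week-old male mice. Vil-Ogt KO mice carried a floxed Ogt gene (C57BL/6 background) and Villin-Cre, which is active in every epithelial cell type of the gut, and WT mice were the controls. IECs were shaken off the ileum or colon in EDTA, a step that also releases intraepithelial lymphocytes, and their RNA was made into 2 WT and 3 Vil-Ogt KO libraries for the ileum and 3 of each for the colon. Equal amounts of RNA were pooled for library construction, and the number of mice behind a library is not given in the sources used here. The tables hold 1 value per genotype and tissue, the authors' log2 FPKM, so no value has an SD, an n or a replicate check, no difference was tested, and "lower" or "higher" describes these pooled values alone. A gene is counted as lower or higher when Vil-Ogt KO and WT differed by at least 2-fold, that is by at least 1 on the log2 scale. The tables of ileum and colon were normalized separately. In such bulk RNA, fewer cells of a type and less RNA per cell cannot be told apart.

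Ogt, the O-GlcNAc transferase deleted in the epithelium, had a log2 FPKM of 3.39 in WT and 1.97 in Vil-Ogt KO ileum, and of 5.02 and 3.03 in the colon. Markers of cell types differed between genotypes. In the ileum the summed FPKM of 5 enterocyte markers was 1090 in WT and 16500 in Vil-Ogt KO, that of 4 colonocyte markers 6220 and 225, that of 4 stem cell markers 416 and 64.7, that of 4 Paneth cell markers 878 and 8850, and that of 5 goblet cell markers 3540 and 2190. Sums in the ileum were 334 and 177 for 5 measured division markers and 102 and 552 for 6 lymphocyte markers. WT ileum thus held colonocyte markers that ileum would be expected to hold at low level, with Car1 at a log2 FPKM of 12.53 in WT and 7.41 in Vil-Ogt KO. For the colon the sums were 924 in WT and 3500 in Vil-Ogt KO for goblet cell markers (4 of 5 higher, 1 lower), 1040 and 499 for colonocyte markers (3 of 3 measured lower), 642 and 1090 for enterocyte markers (2 of 4 measured higher), and 59.5 and 24.4 for lymphocyte markers (4 of 6 lower). Of 4 general epithelial markers, 3 stayed within 2-fold in both tissues, and Vil1, the villin gene, was 1.68 higher on the log2 scale in Vil-Ogt KO ileum and 0.43 higher in the colon. The part of these shifts in the values of the Zfp genes was not tested.

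Promoter letters are shown first, because the results below are also given by whether a promoter holds them. The RefSeq promoter table (build GRCm38.p6, the build also known as mm10; windows from 250 bases before to 50 bases after a start) had an entry for 200 of the 247 members. A 12-base element, GGGANNTGTAGT on either strand, was searched in these windows after the values had been seen. From work in human cells these letters are known as part of a binding site of ZNF143 (Zfp143) and THAP11, which act with HCFC1, a protein that OGT both modifies and cleaves. Binding was not measured here, and a match is a run of letters and not a shown site. The element was present in 34 of the 200 promoters of members (17%), in 395 of the 8694 promoters of other named genes past the same level minimum (4.54%), and in 563 of the 27025 genes of the whole promoter table (2.08%). It lay upstream of the start in 33 of 35 matches, at a median first base of -53.0 relative to the start, and read in the direction of the gene in 26. The windows below are written 5′ to 3′ on the gene's strand, with the element in capitals, and end at the start of the transcript where that is near. The first 6 belong to genes that were far lower in Vil-Ogt KO, 3 neighbours on chromosome 7 and 3 genes of chromosome 13.
Zfp111 (chr7:24208178-24208237, minus strand): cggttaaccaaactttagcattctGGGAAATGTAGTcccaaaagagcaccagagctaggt
Zfp109 (chr7:24237688-24237747, minus strand): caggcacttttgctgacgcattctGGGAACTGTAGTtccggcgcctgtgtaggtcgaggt
Zfp93 (chr7:24270322-24270381, plus strand): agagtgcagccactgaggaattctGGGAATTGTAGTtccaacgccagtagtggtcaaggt
Zfp738 (chr13:67683533-67683592, minus strand): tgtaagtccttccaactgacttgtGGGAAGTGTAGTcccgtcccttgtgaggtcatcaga
Zfp456 (chr13:67375797-67375856, minus strand): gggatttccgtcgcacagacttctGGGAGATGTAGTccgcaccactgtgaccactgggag
Zfp72 (chr13:74390847-74390906, minus strand): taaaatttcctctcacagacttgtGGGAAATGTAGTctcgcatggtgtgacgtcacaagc
The next pair, from genes that were also lower, carries the element on the opposite strand.
Zfp358 (chr8:3493089-3493137, plus strand): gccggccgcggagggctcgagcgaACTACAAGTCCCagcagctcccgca
Zfp933 (chr4:147848419-147848474, minus strand): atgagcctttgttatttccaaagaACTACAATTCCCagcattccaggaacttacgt
The last 4 come from genes that carry the element and were not lower, Zfp189 and Zfp566 being higher in Vil-Ogt KO ileum and Zfp84 and Zfp1 close to WT.
Zfp189 (chr4:49521130-49521175, plus strand): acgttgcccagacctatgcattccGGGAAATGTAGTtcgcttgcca
Zfp566 (chr7:30090551-30090610, minus strand): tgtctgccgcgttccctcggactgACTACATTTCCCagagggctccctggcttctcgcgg
Zfp84 (chr7:29768505-29768551, plus strand): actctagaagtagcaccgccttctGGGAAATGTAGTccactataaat
Zfp1 (chr8:111643393-111643442, plus strand): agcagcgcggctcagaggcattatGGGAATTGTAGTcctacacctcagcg

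More members were lower than higher in Vil-Ogt KO, in both tissues. In the ileum 49 of the 247 members (19.8%) were at least 2-fold lower, against 15.1% of all named genes, and 14 (5.67%) were at least 2-fold higher, against 12.4%. In the colon 39 members (15.8%) were lower, against 6.86% of all named genes, and 5 (2.02%) were higher, against 5.66%. The median difference of Vil-Ogt KO minus WT over the members was -0.29 on the log2 scale in ileum and -0.25 in colon, beside medians over all named genes of -0.10 and -0.05. The middle 50% of members lay between -0.77 and 0.20 in the ileum and between -0.74 and 0.09 in the colon, so most members differed by less than 2-fold. Both tissues gave 32 members that were lower in each, where 4.35% of all named genes were, and 2 that were higher in each, where 3.53% were. Across genes, which are not independent replicates, the differences in ileum and colon had a Pearson correlation of 0.83 over the 247 members and 0.57 over the 12022 named genes. The sign was the same in both tissues for 81.0% of members and 70.6% of named genes. Whether ileum and colon came from the same mice is not given in the sources used here.

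**Figure D1:**
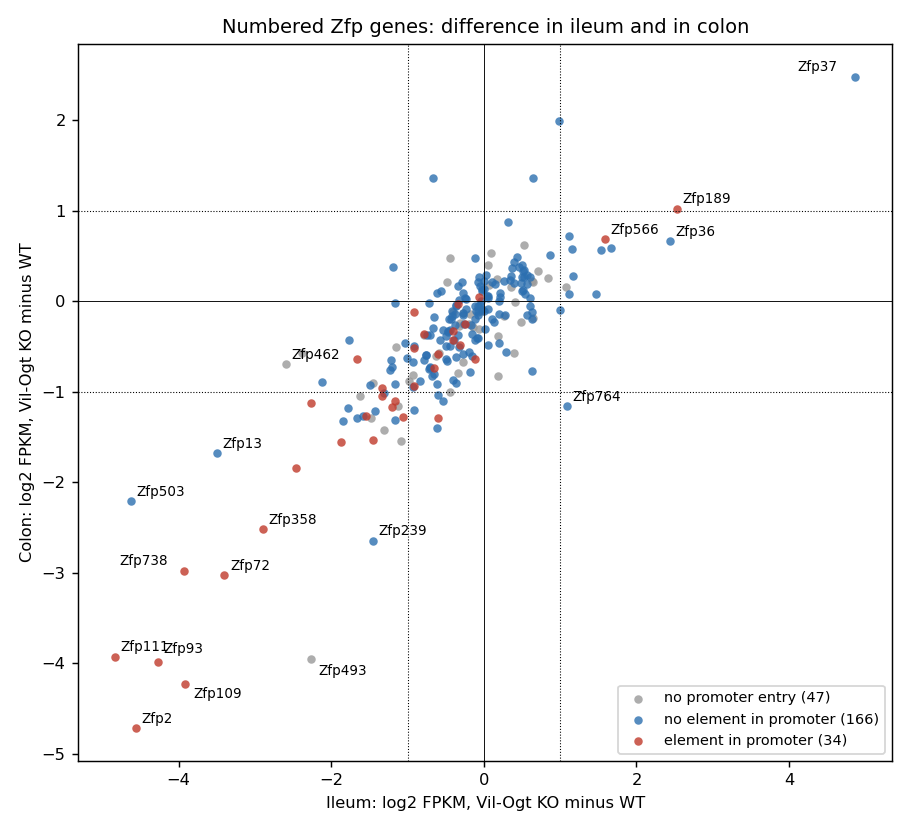
Difference of Vil-Ogt KO minus WT (log2 FPKM) in the ileum (horizontal axis) and in the colon (vertical axis), 1 point per member, coloured by the promoter element; dotted lines mark a 2-fold difference. The points run from Zfp2 and Zfp111 at the lower left to Zfp37 at the upper right, and Zfp764 is the only member beyond the lines in opposite directions.

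The members were weakly expressed, and the low ones made up most of those that were lower. Their median log2 FPKM was 1.57 in WT and 1.43 in Vil-Ogt KO ileum and 2.05 and 1.82 in the colon, where all named genes had medians of 3.49 and 3.41 in the ileum and 3.63 and 3.57 in the colon. Of the 49 members lower in the ileum 36 had a mean log2 FPKM over the 4 columns of less than 1, as did 32 of the 39 lower in the colon and 26 of the 32 lower in both. In the ileum 28 members passed the minimum through WT alone and 8 through Vil-Ogt KO alone, and in the colon 15 and 2, and such genes had to differ. Of the 32 members lower in both tissues, 18 passed through WT alone in at least 1 tissue. Among members with a mean below 0 on the log2 scale 52.4% were lower in ileum and 42.9% in colon, while among other named genes at that level 27.8% and 20.5% were lower. For means of 0 to 1 the shares were 29.2% in both tissues for members, and 22.3% in ileum and 16.3% in colon for other genes. Above a mean of 1 the order was the other way round, with smaller shares of members than of other genes. For means of 1 to 2, 9.43% of members and 20.8% of other genes were lower in the ileum, and 7.55% and 12.2% in the colon. For means of 2 to 3 the ileum shares were 8.82% and 17.2% and the colon shares 4.41% and 6.38%. Of the 36 members with a mean of 3 or more, 2 were lower in the ileum (5.56%, against 11.2% of other genes) and 0 in the colon (against 3.16%), and 3 were higher, all in the ileum. Just inside the minimum stood Zfp667 at -0.89, Zfp862 at -0.85 and Zfp459 at -0.79, and just outside it Zfp418 at -1.01, Zfp40 at -1.02 and Zfp39 at -1.07, each given as the log2 FPKM of the higher genotype in the ileum, the tissue that decided.

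**Figure D2:**
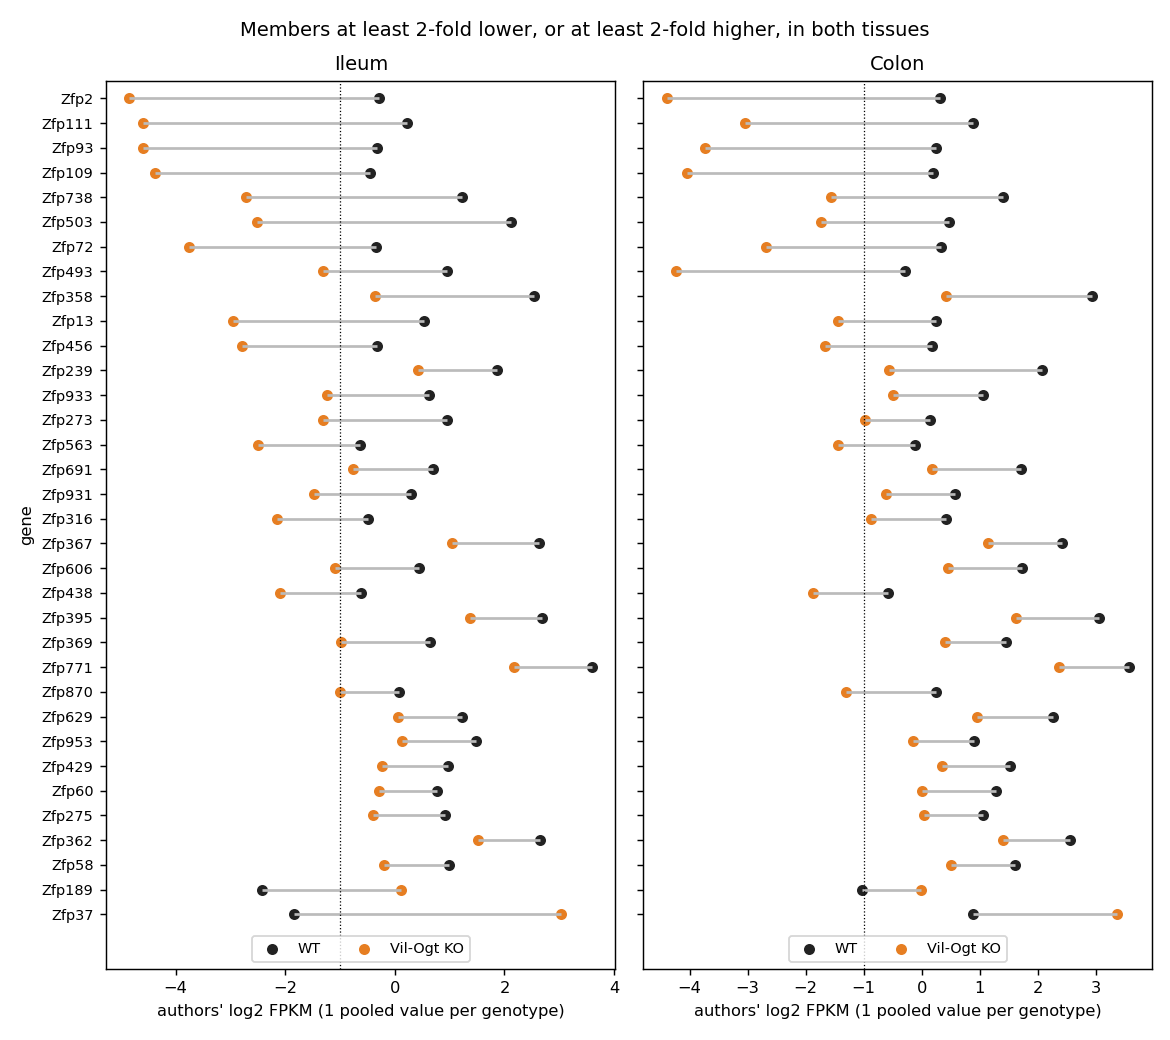
Authors' log2 FPKM in WT and in Vil-Ogt KO, ileum on the left and colon on the right, for the 32 members lower in both tissues and the 2 higher in both; the dotted line marks the level minimum of -1. Only 6 of the lower members had a mean log2 FPKM of at least 1, and Zfp771 stayed the highest of them in both tissues and genotypes.

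The deepest differences were those of genes that were almost silent in Vil-Ogt KO. Zfp2, a gene of chromosome 11 with 13 C2H2 fingers, had a log2 FPKM of -0.28 in WT and -4.84 in Vil-Ogt KO ileum, and of 0.32 and -4.40 in the colon. In linear units this was 0.824 against 0.0349 FPKM in the ileum and 1.25 against 0.0474 FPKM in the colon. Zfp503 (Nolz1), a corepressor known from the developing striatum and limb, had log2 FPKM values of 2.12 in WT and -2.51 in Vil-Ogt KO ileum and of 0.47 and -1.74 in the colon. It was thus the member with the strongest WT expression in the ileum among the 9 that were at least 4-fold lower in both tissues, apart from Zfp358. Zfp358 had log2 FPKM values of 2.53 and -0.36 in WT and Vil-Ogt KO ileum and of 2.94 and 0.42 in the colon, a 7.41-fold and a 5.74-fold difference. Zfp13 was at 0.54 in WT and -2.96 in Vil-Ogt KO ileum and at 0.24 and -1.44 in the colon. Zfp239 (Mok2), whose protein binds both DNA and RNA, was at 1.87 and 0.42 in the ileum and at 2.08 and -0.57 in the colon. Of this group Zfp2 and Zfp358 carry the element, and Zfp503, Zfp13 and Zfp239 have promoter entries without it.

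Better expressed members lower in both tissues were Zfp771, Zfp395, Zfp367, Zfp362 and Zfp629. Zfp771 had a log2 FPKM of 3.60 in WT and 2.17 in Vil-Ogt KO ileum and of 3.58 and 2.37 in the colon. Zfp395, whose human counterpart was described as binding the regulatory region of the Huntington disease gene, had 2.69 and 1.38 in the ileum and 3.05 and 1.63 in the colon. Zfp367 had 2.63 and 1.05 in the ileum and 2.42 and 1.15 in the colon. The differences of these 3, from -1.58 to -1.21, were all closer to 2-fold than those of the nearly silent genes. In the ileum alone Zfp467, known from marrow stroma as a promoter of fat cell over bone cell fate, had 2.56 in WT and 0.44 in Vil-Ogt KO, with 4.75 and 3.85 in the colon. Zfp462, which guards heterochromatin in mouse embryonic stem cells, had 0.76 and -1.83 in the ileum and 1.40 and 0.70 in the colon. For both genes the colon values differed in the same direction by less than 2-fold. Zfp511, Zfp422, Zfp772 and Zfp954 were also lower in the ileum, by -1.22 to -1.16, with colon differences short of 2-fold, and Zfp772 and Zfp954 share 1 ileum entry, as Zfp422 does with Rassf4.

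Few members were higher. Zfp37, first described in testis, had the largest upward difference in both tissues among members, with a log2 FPKM of -1.83 in WT and 3.04 in Vil-Ogt KO ileum (29.2-fold) and of 0.88 and 3.36 in the colon (5.58-fold). Zfp189 was the other member higher in both tissues, at -2.42 and 0.11 in the ileum and at -1.03 and -0.01 in the colon. Zfp36, the messenger RNA decay factor and an early response gene of many stimulated cells, had 4.13 in WT and 6.57 in Vil-Ogt KO ileum (5.43-fold), and 5.18 and 5.84 in the colon (1.58-fold). It was thereby the most abundant member in Vil-Ogt KO ileum, above Zfp207 at 6.18. Zfp747, Zfp655, Zfp513, Zfp408 and Zfp236 were higher in the ileum by 1.07 to 1.47 on the log2 scale and by 0.08 to 0.72 in the colon. Zfp428 and Zfp820 were higher in the colon, each by 1.36, with ileum differences of 0.64 and -0.67. Zfp764 went in opposite directions, 1.09 in ileum and -1.16 in colon, but its ileum entry is shared with E430018J23Rik and its colon entry is not, so the 2 values are not of the same feature.

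The most abundant members were close between genotypes. Zfp207 (BuGZ), which binds spindle microtubules and the checkpoint protein Bub3, had log2 FPKM values of 6.13 in WT and 6.18 in Vil-Ogt KO ileum and of 6.06 and 6.12 in the colon. Zfp706 had 5.81 and 5.88 in the ileum and 5.83 and 6.01 in the colon. Zfp598, a ubiquitin ligase that marks collided ribosomes, had 4.40 and 4.76 in the ileum and 5.0 and 5.28 in the colon. Zfp106, an RNA-binding protein of nerve and muscle, had 4.56 and 4.48 in the ileum and 4.58 and 4.52 in the colon. None of these was higher or lower by 2-fold, and Zfp36 alone among the 10 most abundant members was, in the ileum.

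Members with known roles outside silencing were described by lists. Of 9 measured RNA and ribosome factors, 1 was higher (Zfp36) and 1 lower in the ileum (Zfp326, a splicing factor, at 3.76 in WT and 2.72 in Vil-Ogt KO) and 0 in the colon, with medians of 0.09 and 0.06. Zfp622, which acts in maturation of the large ribosomal subunit, had 4.27 and 4.61 in the ileum and 4.36 and 4.59 in the colon. Of 7 promoter factors 0 passed 2-fold in either tissue, with medians of -0.05 and -0.04. These included Zfp143, the factor known to bind the element, at 2.29 in WT and 2.79 in Vil-Ogt KO ileum and at 2.25 and 2.52 in the colon. Its partners were measured too: Thap11 was at 3.68 and 3.22 in the ileum and at 3.76 and 3.37 in the colon, and Hcfc1 at 4.61 and 4.71 in the ileum and at 4.02 and 4.90 in the colon. The transcripts of all 3 thus stayed within 2-fold.

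Of 6 measured members of chromatin complexes only Zfp462 was lower by 2-fold, in the ileum. Silencers of repeats and imprints were also within 2-fold in both tissues, 5 of 5, with medians of -0.26 in ileum and 0.34 in colon. Zfp809, which silences murine leukaemia proviruses, was at 2.58 in WT and 3.10 in Vil-Ogt KO ileum and at 2.90 and 3.24 in the colon. Zfp445, a keeper of imprints, was at 3.19 and 3.56 in the ileum and at 3.82 and 4.18 in the colon. The 7 measured developmental regulators had medians of -0.93 and -0.82, on a list chosen with earlier results of these data known. Of these, 3 (42.9%) were lower in the ileum (Zfp467, Zfp503 and Zfp704), beside 15.1% of all named genes. In the colon 2 (28.6%) were lower (Zfp503 and Zfp516, a driver of the brown fat programme), beside 6.86%. None passed 2-fold upward, and Zfp703 lay above WT in the ileum, at 0.49.

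Partners of KRAB proteins were measured as a separate list of 22 genes that are no members. In the ileum 4 of them (18.2%) were lower, a share near the 15.1% of all named genes, and 0 were higher, with a median of -0.44 beside -0.10 over all named genes. In the colon 0 passed 2-fold, with a median of -0.10 beside -0.05. Trim28, the corepressor bound by the KRAB box, had a log2 FPKM of 6.13 in WT and 5.07 in Vil-Ogt KO ileum and of 5.69 and 5.22 in the colon. The other 3 were Cbx5 (HP1α) at -1.16, Hdac2 at -1.01 and Uhrf1, which guides maintenance DNA methylation, at -1.45, and Uhrf1 is also a gene of dividing cells. Setdb1 was at 3.08 and 2.81 in the ileum and at 3.11 and 3.15 in the colon. Division markers were lower in the same direction in the ileum (3 of 5 measured, median -1.12), and their part in these values was not tested.

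Protein features were counted for the 240 members with a complete coding sequence in GENCODE M21. A KRAB box was matched in 121, and these had a median of 12 fingers. Of the rest, 55 had no KRAB match and 8 or more fingers, and 58 had no KRAB match and fewer fingers. The last 6 had neither a KRAB nor a C2H2 match, among them Zfp36, Zfp503 and Zfp703. KRAB genes were the least expressed class, with median log2 FPKM values of 0.99 in WT ileum and 1.43 in WT colon, beside 2.07 and 2.57 for the many-fingered and 2.35 and 2.55 for the few-fingered class. Lower genes made up 15.1% of all named genes for ileum and 6.86% for colon. Of KRAB genes 27 (22.3%) were lower in the ileum and 24 (19.8%) in the colon, with median differences of -0.37 and -0.29. Of the many-fingered genes without a KRAB match 16.4% and 12.7% were lower, with medians of -0.25 and -0.24. The few-fingered class had 19.0% and 12.1%, with medians of -0.19 and -0.22. The ileum shares of the 3 classes thus lay nearer to that of all named genes than the colon shares did. The order of the classes depended on the KRAB pattern. With a stricter pattern 19.2% and 17.2% of KRAB genes were lower in ileum and colon, and 22.1% and 18.2% of many-fingered genes without a match. Among members above a log2 FPKM of 1 in both tables the KRAB medians were -0.08 and -0.12. The many-fingered medians were then -0.09 and -0.15 and the few-fingered ones -0.12 and -0.18, so KRAB genes were not the lowest class there. Among other zinc finger families, 1 of 30 Zbtb genes was lower in ileum and 2 in colon (medians 0.08 and -0.12), and 2 of 15 Zscan and Zkscan genes were lower in each tissue (medians -0.19 and -0.29). Of 19 Klf and Sp genes, 2 were lower in ileum and 4 (21.1%) in colon (medians -0.09 and -0.44), and 18 of the 19 lay below 0 in the colon, so lower colon values were not limited to Zfp genes.

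Members were also described by the promoter element, which was picked after their values had been seen. Of the 34 members with the element 18 (52.9%) were lower in the ileum and 17 in the colon, with median differences of -1.12 and -1.0. Of the 166 members whose promoter entry lacks it 21 (12.7%) and 15 (9.04%) were lower, with medians of -0.18 and -0.15, beside 15.1% and 6.86% of all named genes. Of the 26 members lower in both tissues that have a promoter entry 16 carry the element, as do 7 of the 8 that were at least 4-fold lower in both. All of these 7 but Zfp358 passed the level minimum through WT alone in both tissues, so they had to be lower in Vil-Ogt KO. Because of how the element was picked, these shares describe the genes that drew attention to it and support nothing further, and no test was run.

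**Figure D3:**
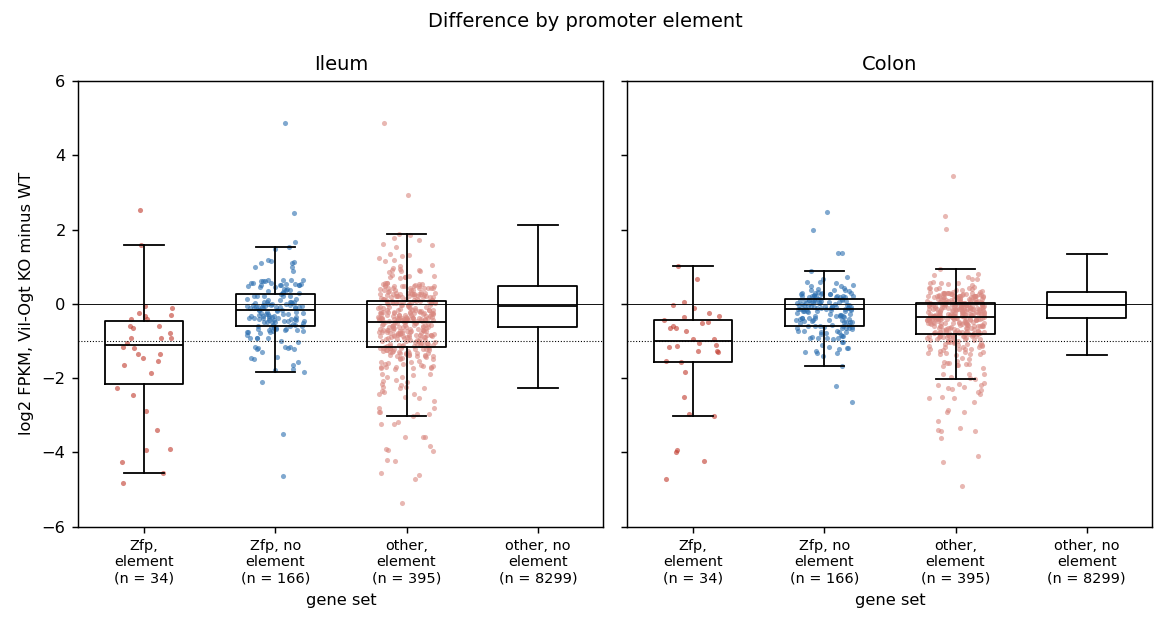
Difference of Vil-Ogt KO minus WT (log2 FPKM, vertical axis) in ileum and colon for members and for other named genes, with and without the element in a RefSeq promoter; boxes span the quartiles around the median and points are single genes (not drawn for the 8299 other genes without it). Members with the element have medians of -1.12 and -1.0, and the other 3 sets lie closer to 0.

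The same shares were taken within the KRAB class, inside and outside clusters and by level. Within the KRAB class 14 of the 24 genes with the element were lower in the ileum and 13 in the colon, against 10 and 8 of the 83 genes without it. Members inside chromosome clusters gave 56.5% and 47.8% with the element (23 genes) and 15.3% and 8.33% without it (72 genes). Outside clusters the shares were 45.5% and 54.5% (11 genes) against 10.6% and 9.57% (94 genes). With a mean log2 FPKM below 0, 10 of 14 genes with the element were lower in each tissue, against 7 and 5 of 19 without it, and with a mean of 0 to 1, 7 and 6 of 8 against 5 and 6 of 31. With a mean of 1 to 2, 1 of 6 genes with the element, Zfp358, was lower in each tissue, against 3 of 36 without it. Of the 6 genes with the element above that range 0 were lower. Without it, 4 of 52 were lower in the ileum and 1 in the colon for means of 2 to 3. For means of 3 or more these were 2 and 0 of 28. The larger share with the element was thus found mainly among weakly expressed members. The mean includes Vil-Ogt KO, so a gene that is far lower there is also placed in a lower range.

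A longer form with 2 more letters in front, CTGGGANNTGTAGT, was present in 19 of the 200 promoters of members and in 2.55% of those of other named genes past the level minimum, and its members had medians of -1.06 in ileum and -1.17 in colon. Other words common in promoters of active genes were searched on both strands in the same windows. The ETS-type word CCGGAAGT was in 22 promoters of members (11%, against 9.34% of those other genes), with 22.7% and 18.2% of these members lower and medians of -0.37 and -0.45. The NRF1-type word GCATGCGC was in 11, of which 0 were lower in either tissue, and the YY1-type word AAGATGGC in 13, of which 0 were. Both are small sets. The cyclic AMP response word TGACGTCA was in 9, of which 4 (44.4%) were lower in ileum and 3 (33.3%) in colon. This set overlaps the element: Zfp72, Zfp595 and Zfp953 hold both, and each was lower in the ileum. Zfp595 and Zfp953 share an ileum entry. The GC box GGGGCGGG was in 54, of which 9 (16.7%) and 5 (9.26%) were lower, near the shares of all named genes. These words were not picked from the lower members as the element was, so their shares and its shares are not ranked against each other.

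Positions in the tables (build mm10) placed 114 members in 15 clusters, each of at least 4 members whose neighbouring starts lay at most 1 Mb apart. Members in clusters had medians of -0.42 in ileum and -0.36 in colon, and the 133 others -0.11 and -0.15. Clusters differed from each other far more than this. The chromosome 13 cluster, 67069397 to 67830985, held 13 members, all with a KRAB match. Of these 9 (69.2%) were lower in ileum and 7 (53.8%) in colon, beside 15.1% and 6.86% of all named genes. Their medians were -1.34 and -1.05, with no member above 0 in either tissue. The 13 members came from 11 ileum entries. Zfp273 and Zfp493 share their ileum value, as do Zfp595 and Zfp953, and each of these genes is among the 9 lower in ileum. This cluster was also the one richest in the element, with 10 of 11 promoter entries. At the other end the chromosome 17 cluster from Zfp160 to Zfp13, 21008940 to 23599487, held 17 members, 16 with a KRAB match, and medians of -0.08 and 0.11, and 0 of its 16 promoter entries carries the element. Only Zfp13, at one end of it, was lower in both tissues. The second chromosome 17 cluster, 32765496 to 33631714, went against this order: its 10 members, from -1.85 (Zfp563) to -0.02 (Zfp472) in the ileum, had medians of -0.80 and -0.58 with 0 of 9 promoter entries carrying the element. On chromosome 8 the 5 members from Zfp930 to Zfp963 lay between 0.06 and 0.63 in the ileum and between -0.46 and 0.40 in the colon. On chromosome 7 the cluster from Zfp84 to Zfp146 carried the element in 5 of 7 promoter entries, yet 0 of its 8 members were lower by 2-fold in either tissue, with medians of -0.38 and -0.18.

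**Figure D4:**
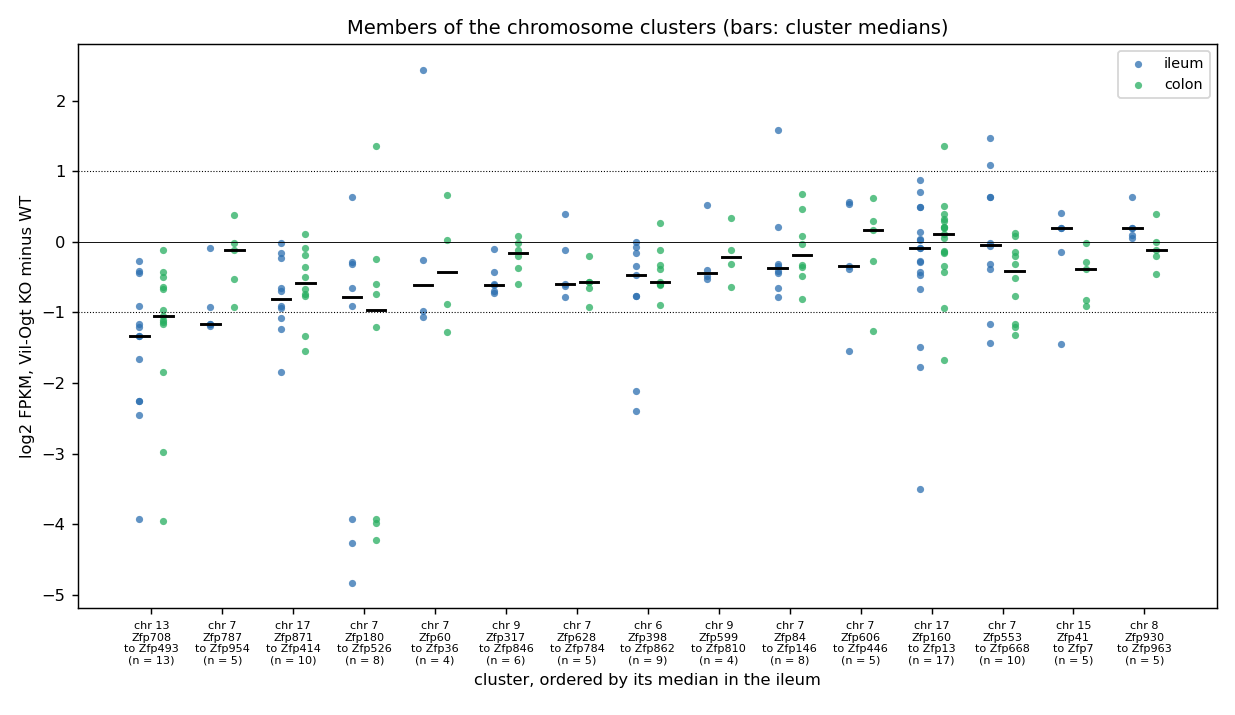
Difference of Vil-Ogt KO minus WT (log2 FPKM, vertical axis) of each member of the 15 clusters, ileum in blue and colon in green, with clusters ordered by their ileum median (black bars). The chromosome 13 cluster is lowest by median in the ileum, and the 3 deepest single values, those of Zfp111, Zfp93 and Zfp109, are in the chromosome 7 cluster from Zfp180 to Zfp526.

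That chromosome 7 cluster held a short run of genes near silence in Vil-Ogt KO. Zfp111 (24193214 to 24208149) had a log2 FPKM of 0.23 in WT and -4.60 in Vil-Ogt KO ileum and of 0.88 and -3.05 in the colon. Zfp109 (24226821 to 24237598) had -0.46 and -4.38 in the ileum and 0.19 and -4.04 in the colon. Zfp93 (24270417 to 24277794) had -0.33 and -4.60 in the ileum and 0.25 and -3.74 in the colon. All 3 were between 15.1-fold and 28.4-fold lower in the ileum and between 15.2-fold and 18.8-fold lower in the colon. Between and beside them stand genes that are no members because of a low or missing ileum level: Zfp108 was listed for the colon only, at -1.26 in WT and -6.17 in Vil-Ogt KO, Zfp61 had -1.40 and -3.0 in the ileum and 0.29 and -3.57 in the colon, and Zfp94, listed for the colon only, had 0.37 and -2.29. Zfp108 carries the element, and Zfp61 and Zfp94 do not. Most genes on either side differed less. Zfp235 before the run differed by -0.91 in ileum and -1.20 in colon, Smg9 after it by -0.74 and -0.38, but Kcnn4 by -2.37 and -0.62 and Cadm4 by -2.94 and -1.50. Plaur, the urokinase receptor gene further on, was higher, at 0.64 in WT and 3.44 in Vil-Ogt KO ileum and at 0.58 and 4.8 in the colon.

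**Figure D5:**
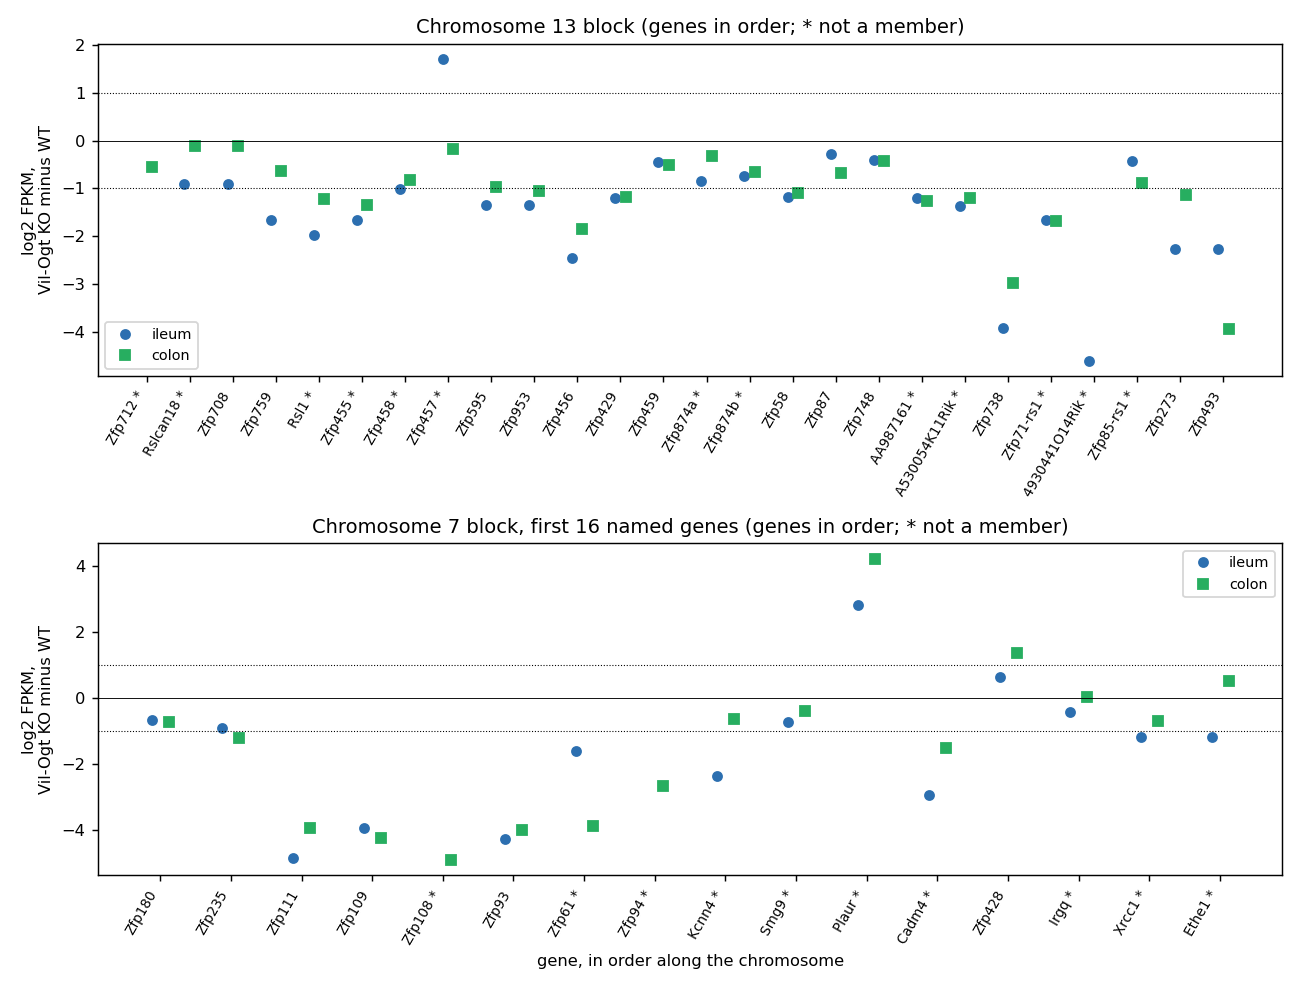
Difference of Vil-Ogt KO minus WT (log2 FPKM, vertical axis) of named genes in their order along the chromosome 13 cluster (upper panel) and the beginning of the chromosome 7 cluster (lower panel); circles are ileum, squares colon, and asterisks mark genes that are no members. In the lower panel Zfp111, Zfp109 and Zfp93 lie near -4 in both tissues and Zfp180 and Smg9 lie between 0 and -1.

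In the chromosome 13 cluster the lower values ran through members and other genes alike. Zfp738 had the deepest ileum value of its members, at 1.22 in WT and -2.71 in Vil-Ogt KO ileum and at 1.41 and -1.57 in the colon. Zfp456 had -0.33 and -2.79 in the ileum and 0.17 and -1.67 in the colon. Zfp429 and Zfp58 were close to 2-fold lower, with -1.20 and -1.17 in the ileum and -1.17 and -1.10 in the colon. Among the mildest were Zfp748, at -0.41 and -0.43, and Zfp87, at -0.27 and -0.67, and Zfp748 carries the element. Among the other named genes of the interval, extended by 100 kb, 7 of 12 were lower in the ileum and 5 of 12 in the colon. Of all named genes past the level minimum 15.1% and 6.86% were. Some of these neighbours, such as Zfp455 and Zfp458, stood under that minimum, and Rslcan18 shares its entry with the member Zfp708. One of the lower genes was Rsl1, a KRAB gene known from mouse liver as a repressor of male-specific genes. It was at 0.60 in WT and -1.38 in Vil-Ogt KO ileum and at 0.80 and -0.42 in the colon. Zfp457 alone was higher, at -2.99 in WT and -1.28 in Vil-Ogt KO ileum, a low level in both genotypes. Near-identical copies stand side by side there, and Zfp273 with Zfp493 and Zfp595 with Zfp953 each share 1 ileum entry, so reads may have been divided between neighbours. In all, 22 members were in an entry with another symbol in at least 1 table. Zfp72, which lies elsewhere on chromosome 13 (74370837 to 74378786), had -0.35 and -3.75 in the ileum and 0.34 and -2.69 in the colon, so values of this size were not limited to the cluster.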

How the data were processed

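RNA of IECs from 10-week-old mice had been sequenced as 11 libraries. According to the submitters' processing notes TopHat (1.0.0), Bowtie and Cufflinks were used with build mm10. The log2 FPKM values were made by the authors as 1 value per genotype and table before they were deposited (16521 ileum and 18122 colon rows), and -10 stands for 0 FPKM. The deposited log2 ratio, q-value and significance columns hold the authors' own comparison and were not used. Depth per library and spread between libraries were therefore not analysed here, and no test was run.

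Entries were split at commas, and of repeated symbols the entry with the highest mean was kept. The difference is Vil-Ogt KO minus WT log2 FPKM. A gene was counted at 2-fold or more. Fingers were matched as cysteine, 2 to 4 residues, cysteine, 12 residues, histidine, 3 to 5 residues, histidine, and KRAB boxes by a pattern, in proteins translated from GENCODE M21 rather than RefSeq. Promoter sequences are from RefSeq (GRCm38.p6).

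Named members were the 10 highest and 10 lowest differences per tissue among those with a mean log2 FPKM of at least 1, the 10 highest mean levels, members past 2-fold in both tissues, ends of clusters, members beside the level minimum and role lists. Members and lists were chosen with earlier results of these data known. The promoter element, the windows and genes without this rule were chosen after the values were seen. Calculations were tested on simulated tables and run in Python 3.11.15 with pandas 2.3.3, NumPy 2.4.6, SciPy 1.17.1 and Biopython 1.88.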

Additional observations from a re-analysis of the deposited data

How the results depend on the processing

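The 2-fold counts of members depended on the level and on the threshold, and the medians on the level. With 1 added to each FPKM, 14 members were lower and 5 higher in the ileum and 10 and 3 in the colon. With a level minimum of log2 FPKM 1 the counts were 15 and 8 in the ileum and 9 and 2 in the colon, and the median went from -0.29 to -0.10 in the ileum, the value over all named genes, and from -0.25 to -0.15 in the colon. At 1.5-fold the counts were 84 and 28 in the ileum and 81 and 11 in the colon, and at 4-fold 15 and 3, and 10 and 1. Requiring both genotypes to reach the minimum, an alternative added after the data were seen, left 25 and 8 in the ileum and 20 and 2 in the colon, by construction with fewer genes. Over members above log2 FPKM 1 the KRAB medians went from -0.37 to -0.08 and from -0.29 to -0.12. They no longer lay below those of the many-fingered and few-fingered classes. Without a level minimum, with single-symbol entries, the lowest entry of a repeated symbol, 1 member per entry, or centring on all named genes, each count stayed within 1.5 times. The share of lower members was larger with the element than without it under every one of these settings. At the level minimum of 1 it was 15.4% with it in either tissue, against 8.85% (ileum) and 4.42% (colon) without it. With 1 added it was 11.8% against 4.22% in the ileum. The element was picked from these same values, and the settings only cut them in other ways, so this order supports nothing further. With 12 or more fingers required for the many-fingered class its ileum median went from -0.25 to -0.06, and its colon median was -0.25. A stricter KRAB pattern gave KRAB medians of -0.36 and -0.27. The share of lower genes was then larger in the many-fingered class without a match than in the KRAB class, in both tissues. Clusters with gaps of 250 kb or 2 Mb changed no number of clusters or clustered members by over 1.5 times. Leaving out a library could not be done with 1 value per genotype. No paired analysis was possible because the columns carry no replicate numbers. Log2 FPKM values near -4 rest on an unknown number of fragments, since the depth is unknown, and their differences are uncertain in size.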

Other observations

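Other named genes with the element are given here beside the members. Of 395 other named genes with it in a RefSeq promoter 30.4% were at least 2-fold lower in Vil-Ogt KO ileum and 19.0% in the colon, with medians of -0.48 and -0.35. Of the 8299 other named genes without it 13.7% and 5.75% were lower, with medians of -0.07 and -0.03. With a mean log2 FPKM below 0, 18 (69.2%) of 26 other genes with the element were lower in the ileum and 16 (61.5%) in the colon. Without it the shares at that level were 26.5% and 18.0%. For means of 0 to 1 they were 40.7% and 33.3% of 27 genes with it, against 19.3% and 14.3% without it. For means of 1 to 2 they were 54.3% and 45.7% of 46, against 19.5% and 11.3%. For means of 2 to 3 they were 25.9% and 17.2% of 58, against 15.0% and 5.94%. With a mean of 3 or more they were 21.4% and 7.98% of 238, against 10.6% and 2.67%. An example in the chromosome 7 interval is Rabac1, a Rab acceptor of the Golgi, with a log2 FPKM of 5.62 in WT and 3.34 in Vil-Ogt KO ileum and of 5.66 and 4.01 in the colon. Rabac1 was picked after its values had been seen. These other genes include zinc finger genes of the chromosome 13 interval, such as Rsl1, Zfp874a and Zfp874b. The 26 other genes with the element and a mean below 0 had median log2 FPKM values of 0.26 in WT and -1.4 in Vil-Ogt KO ileum. In the colon these were 0.57 and -0.92. As among members, a gene that passed the level minimum through WT alone had to have a lower value in Vil-Ogt KO. The mean that sets the ranges also includes Vil-Ogt KO. The element was picked after the members' values in both tissues had been seen, and no test was run in either set.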
